A study of Rattus norvegicus with 6 samples.

Results

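The genes described here encode fibrillins and other proteins of elastic fibres and their microfibrils, 8 in all: the fibrillins Fbn1 and Fbn2, elastin (Eln), the fibulins Fbln1, Fbln2 and Fbln5, and the latent TGF-beta binding proteins Ltbp1 and Ltbp2. They were chosen by name, with earlier results of these data known. The choice was made out of 8899 rat genes to which a probe of the array could be matched through its transcript accession. Of the 8 genes, 6 had a probe, and Fbln1 and Fbln2 had no matching probe and are not analysed here. The 6 genes had 8 probes, 2 each for Fbn1 and Fbn2 and 1 each for the others, with 1 spot per probe. Male rats aged 8 weeks gave the bone marrow cells, which were kept under osteogenic conditions in every group and harvested on day 10 of culture. The control group received no ultrasound, and the other group was exposed to LIPUS (pulsed ultrasound of low intensity), short bursts of sound waves that act on cells as a mechanical stimulus. Each group had 3 samples, each on 1 single-colour array. The labels name no strain and do not say whether replicates were separate animals or cultures, so p-values measure only the spread between these samples, which may be technical.

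Fibrillins are large secreted glycoproteins that assemble end to end into microfibrils. Elastin is laid down on microfibrils as a scaffold and crosslinked by lysyl oxidases, with fibulins joining the elastin core to the microfibril. Latent TGF-beta binding proteins attach to fibrillin and keep TGF-beta stored in the matrix. In the skeleton, fibrillin microfibrils control how much TGF-beta and BMP reach bone cells, and mutations of human FBN1 and FBN2 cause Marfan syndrome and congenital contractural arachnodactyly, disorders with overgrown long bones.

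Levels are log2 brightness after background correction, relative to the 75th percentile of the same array, so 0 is the brightness at that percentile and a change of 1 is a doubling relative to it. A probe counted as above background on an array when its spot exceeded, after subtraction of local background, the 95th percentile of the array's 153 negative controls. Between 53.5% and 61.9% of probes were above background per array, and arrays correlated with each other at 0.964 to 0.986 across probes, which are not independent replicates. The grid of spots was tilted alike on control 1 and control 2, and differently on control 3 and the 3 LIPUS arrays. That split was taken as 2 slides, which the labels do not name. Control 3 was therefore the only control on the slide of the LIPUS arrays, and values within that slide are given beside the results. The bone genes Bglap and Spp1, markers of the osteoblasts that such cultures form, saturated the scanner on each of the 6 arrays.

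Control and LIPUS arrays were compared to see whether elastic fibre genes differ after ultrasound in osteogenic culture. The data show lower signal for both fibrillins in LIPUS. Fbn1 was 2.52-fold lower and Fbn2 1.73-fold lower at the brighter probe of each gene, and the other probe of each gene was also below control. No probe of elastin, fibulin 5, Ltbp1 or Ltbp2 passed the test. All 8 probes were kept by the filter on dim probes (above background on at least 3 of the 6 arrays), and 2 of the 8 were called at a limma adjusted p under 0.05, both lower. Over all 23260 probes tested, 6.51% were called, 3.65% lower and 2.86% higher. The median change of the 8 probes was −0.33, against 0.04 over all probes tested. That median counts each fibrillin with 2 probes. The single probes of Eln, Fbln5, Ltbp1 and Ltbp2 changed by 0.59, −0.11, 0.18 and −0.25, so it does not describe the genes other than fibrillins. In 3 of the 8 probes, all from fibrillins, every LIPUS value lay below every control value, as was so for 12.7% of all probes tested; 14.5% lay wholly above, so that 27.2% did not overlap. RNA from whole cultures was measured, so fewer cells of a type and less RNA per cell cannot be told apart.

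**Figure D1:**
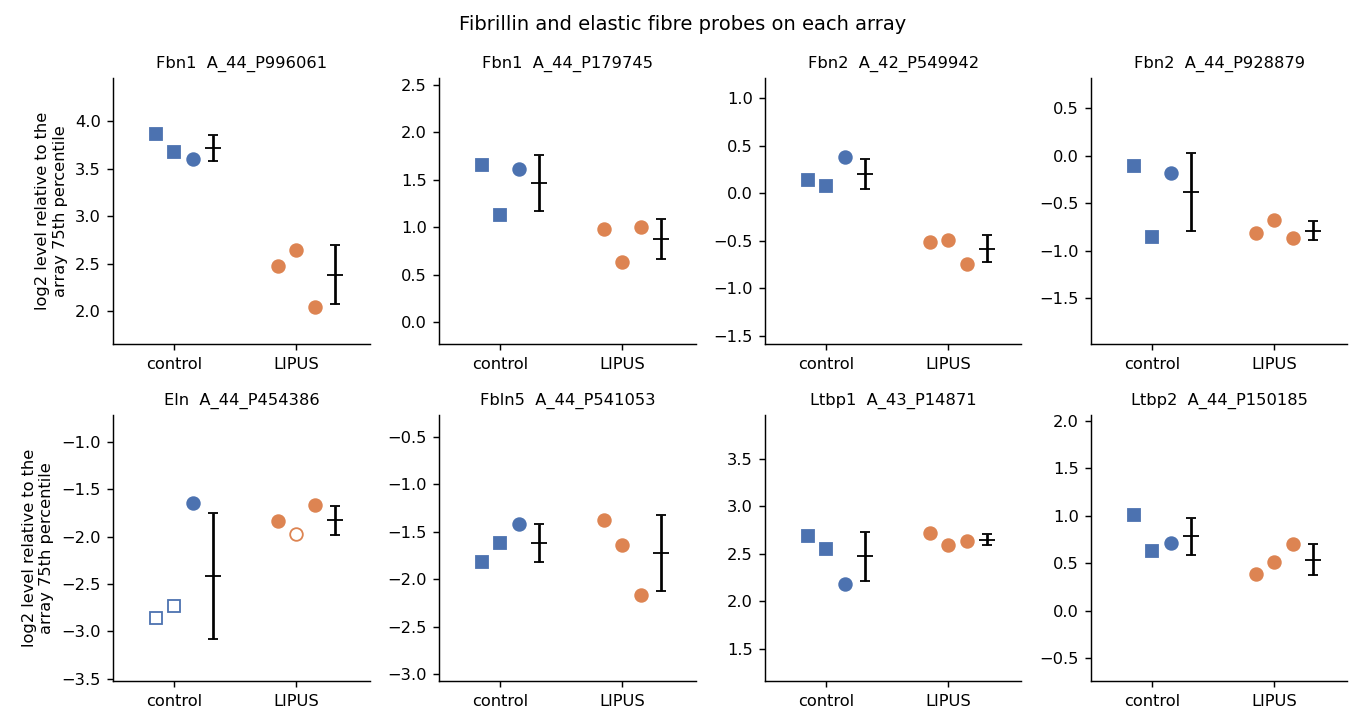
Log2 level of each of the 8 probes on each array, relative to the array's 75th percentile, by group (control blue, LIPUS orange); squares are the arrays of the slide with control 1 and control 2, circles the slide with control 3 and the LIPUS arrays, open symbols are not above background, and black bars are mean and SD (n = 3). All panels span the same range of log2 units. The LIPUS values of Fbn1 probe A_44_P996061 (2.05 to 2.64) lie below all its control values (3.60 to 3.87), and the open symbols are confined to Eln.

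Fbn1 (NM_031825) encodes fibrillin 1, the main fibrillin of adult microfibrils. At its brighter probe, A_44_P996061, control 1, 2 and 3 gave 13452, 9559 and 12553 intensity units above local background, and LIPUS 1, 2 and 3 gave 4531, 4211 and 3023. The highest LIPUS signal was thus well below the lowest control signal before any scaling. On the log2 scale the probe read 3.87, 3.68 and 3.60 in control and 2.47, 2.64 and 2.05 in LIPUS. The groups did not overlap, and control 3, from the slide of the LIPUS arrays, lay with the other controls. The mean fell from 3.72 ± 0.14 to 2.39 ± 0.31 (SD, n = 3 each), a change of −1.33 ± 0.19 (SE, 95% interval −1.76 to −0.90, limma adjusted p = 0.0041). Only 0.774% of all probes had a lower change.

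The other Fbn1 probe, A_44_P179745, read 1.65, 1.13 and 1.61 in control and 0.98, 0.63 and 1.01 in LIPUS. These groups did not overlap either, but control 2 lay close to the highest LIPUS value. The change was −0.59 ± 0.20 (SE, 95% interval −1.04 to −0.15) and did not pass (limma adjusted p = 0.116). Within the slide of the LIPUS arrays it was −0.74. The difference between the probes on each array, bright minus dim, averaged 2.25 ± 0.28 over the controls and 1.51 ± 0.49 over the LIPUS arrays (SD, n = 3 per group). That shift of −0.74 had an exact permutation p of 0.2 (two-sided, also after adjustment over the 2 probe pairs), in a design that cannot go below 0.1, so whether the probes differ in response is not settled. The array tables do not give the probes' sequences, so which exons of the Fbn1 transcript each one reads is not known here.

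In a fit with slide as a fixed block, where only control 3 stands against the LIPUS arrays, the change of the bright Fbn1 probe was −1.22 ± 0.26 (SE) and was no longer called (limma adjusted p = 0.0888). That fit called 1.24% of all probes. The call held with slide as a random block (−1.30, adjusted p = 0.00856) and with each array omitted in turn (−1.46 to −1.16, adjusted p = 0.00992 to 0.0238).

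Fbn2 (NM_031826) encodes fibrillin 2, the fibrillin best known from embryonic and growing tissue. Its brighter probe, A_42_P549942, gave 928, 693 and 1241 intensity units above background for the controls, against 471, 388 and 339 under LIPUS. The log2 levels were 0.14, 0.08 and 0.39 in control and −0.52, −0.49 and −0.75 in LIPUS, again without overlap, and control 3 was the highest of all. The mean fell from 0.20 ± 0.16 to −0.58 ± 0.14 (SD, n = 3 each). The change was −0.79 ± 0.17 (SE, 95% interval −1.16 to −0.41, limma adjusted p = 0.0234), and 3.52% of all probes had a lower one. With slide as a fixed block the change was larger, −0.97 ± 0.20 (SE), but not called (limma adjusted p = 0.0759). The call also ended without control 1 (adjusted p = 0.0723), LIPUS 1 (0.0687), LIPUS 2 (0.0633) or LIPUS 3 (0.0934), with changes of −0.84 to −0.71.

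The other Fbn2 probe, A_44_P928879, read −0.11, −0.86 and −0.18 in control and −0.82, −0.68 and −0.87 in LIPUS. Control 2 lay within the range of the LIPUS arrays here, while the remaining controls lay above it. The change of −0.41 ± 0.22 (SE, 95% interval −0.89 to 0.08) did not pass (limma adjusted p = 0.309), and it was −0.64 without control 2 and −0.27 without control 1. Within the slide of the LIPUS arrays it was −0.61. Bright minus dim probe averaged 0.59 ± 0.34 over the controls and 0.20 ± 0.09 over the LIPUS arrays (SD, n = 3 per group), a shift of −0.38 (exact permutation test, two-sided, p = 0.2, also adjusted over the 2 pairs).

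The value table deposited by the authors gave the same direction for the 4 fibrillin probes. There the bright Fbn1 probe averaged 3.92 over the controls, the lowest of them at 3.84, and read 2.60, 2.43 and 2.64 on the LIPUS arrays, a change of −1.36 ± 0.14 (SE, limma adjusted p = 0.0142). The bright Fbn2 probe changed by −0.94 ± 0.22 (adjusted p = 0.0773) and the dim Fbn2 probe by −0.89 ± 0.19 (adjusted p = 0.0659), so that neither was called and the 2 Fbn2 probes were closer to each other than in the spot tables. The dim Fbn1 probe changed by −0.48 ± 0.20 (adjusted p = 0.24). Of all probes, 3.67% were called in that table.

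**Figure D2:**
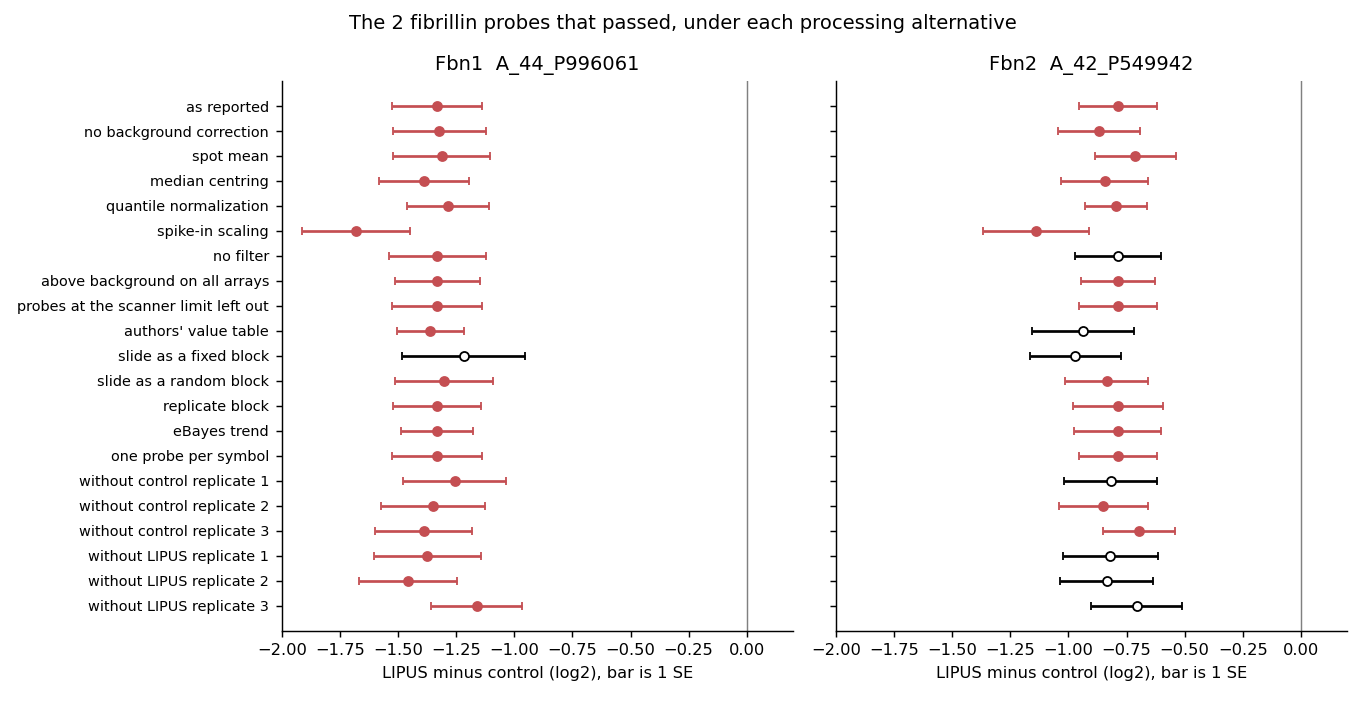
Change in log2 level, LIPUS minus control, of the bright Fbn1 and Fbn2 probes as reported and under each of 20 processing alternatives, with 1 SE; filled red points were called (limma adjusted p under 0.05) and open black points were not. The changes lie between −1.68 and −1.16 for Fbn1, with 1 uncalled setting, and between −1.14 and −0.70 for Fbn2, with 7 uncalled settings.

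The scaling sets the size of these changes but not their direction. Scaled to the spike-in controls, RNA added in known amount at labelling, the median of all probes moved by −0.35. The bright Fbn1 probe then changed by −1.68 and the dim one by −0.94, the bright Fbn2 probe by −1.14 and the dim one by −0.76, and all 4 were called (limma adjusted p = 8.36e-06, 0.0102, 0.00096 and 0.0323). Under that scaling 206 of 3910 called probes were higher in LIPUS.

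The log2 ratio of Fbn2 to Fbn1 on each array, taken at the bright probes, came to −3.72, −3.60 and −3.22 for the controls and to −2.99, −3.13 and −2.79 for the LIPUS arrays. The ratio was higher on each LIPUS array than on any control array, by 0.54 in the mean. An exact permutation test, two-sided, gave p = 0.1, the smallest that 3 arrays against 3 allow, and 0.1 after adjustment over the 3 ratios tested, so the difference did not pass. Within the slide that holds both groups the shift was 0.25. The direction depends on the Fbn1 probe used. The dim Fbn1 probe changed by −0.59, less than the bright Fbn2 probe at −0.79.

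Eln (NM_012722) encodes tropoelastin, the soluble precursor that forms the core of the elastic fibre. Its probe was near the background limit: it gave 30, 10 and 211 intensity units above local background on the controls, against 121, 71 and 125 on the LIPUS arrays, and only control 3, LIPUS 1 and LIPUS 3 counted as above background. The log2 levels were −2.86, −2.73 and −1.65 in control and −1.84, −1.97 and −1.67 in LIPUS. Control 3 was the highest of all 6, so the groups overlapped, and the low values were those of the slide with control 1 and control 2. The change of 0.59 ± 0.29 (SE, 95% interval −0.06 to 1.24) did not pass (limma adjusted p = 0.275). Within the slide of the LIPUS arrays it was −0.18 (adjusted p = 0.73 with slide as a fixed block), without control 1 it was 0.37, and without control 3 it was 0.97 and called (0.0174). In the authors' value table Eln was listed at the lowest value of the column on control 2, LIPUS 2 and LIPUS 3, and the change there was −1.04 ± 1.38 (SE, adjusted p = 0.704).

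With Eln above background on 3 of the 6 arrays, its ratio to Fbn1 has no firm value. As read, the log2 ratio averaged −6.13 ± 0.78 over the controls and −4.21 ± 0.46 over the LIPUS arrays (SD, n = 3 per group), a difference of 1.92 at the smallest exact permutation p possible (0.1, two-sided, adjusted 0.1). It was 1.04 within the slide that holds both groups and 0.32 in the authors' value table (exact p = 1), where Eln is at the column's lowest value on 3 arrays.

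Fbln5 (NM_019153) encodes fibulin 5, which binds tropoelastin and lysyl oxidase-like enzymes during fibre assembly. The probe was above background on all 6 arrays, at −1.82, −1.62 and −1.41 in control and −1.37, −1.64 and −2.16 in LIPUS. It was close to the background limit on some. Control 1, control 2 and LIPUS 3 gave 166, 142 and 56 intensity units, against limits of 133.4, 112 and 49.6. LIPUS 1 was the highest and LIPUS 3 the lowest of the 6 arrays. The change of −0.11 ± 0.22 (SE, 95% interval −0.61 to 0.39) did not pass (limma adjusted p = 0.816), and over the omission of each array it ran from −0.28 (without LIPUS 1) to 0.11 (without LIPUS 3). Within the slide of the LIPUS arrays it was −0.31.

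Ltbp1 (NM_021587) and Ltbp2 (NM_021586) encode latent TGF-beta binding proteins. Ltbp1 tethers the latent growth factor to fibrillin, whereas Ltbp2 does not bind it and acts with microfibrils. Ltbp1 read 2.68, 2.55 and 2.18 in control and 2.72, 2.60 and 2.64 in LIPUS. The groups overlapped, with control 3 below all other arrays and LIPUS 1 above them. The change of 0.18 ± 0.18 (SE, 95% interval −0.22 to 0.58) did not pass (limma adjusted p = 0.601). It was 0.47 against control 3 alone (adjusted p = 0.278 with slide as a fixed block) and, by the shift that spike-in scaling gives every probe, −0.17 there. Without control 3 the change was 0.03, and without control 1 it was 0.28.

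Ltbp2 read 1.01, 0.63 and 0.72 in control and 0.38, 0.52 and 0.71 in LIPUS, so that LIPUS 3 lay between control 2 and control 3. The change of −0.25 ± 0.18 (SE, 95% interval −0.64 to 0.14) did not pass (limma adjusted p = 0.448), and it was −0.14 without control 1. Within the slide of the LIPUS arrays it was −0.18. The log2 ratio of Ltbp2 to Ltbp1 averaged −1.69 ± 0.23 over the controls and −2.11 ± 0.20 over the LIPUS arrays (SD, n = 3 per group). Each LIPUS array was below every control, but barely: LIPUS 3 was at −1.93 and control 2 at −1.92. The mean difference of −0.43 did not pass (two-sided exact permutation p = 0.1, adjusted 0.1). Within the slide that holds both groups this shift was −0.65.

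**Figure D3:**
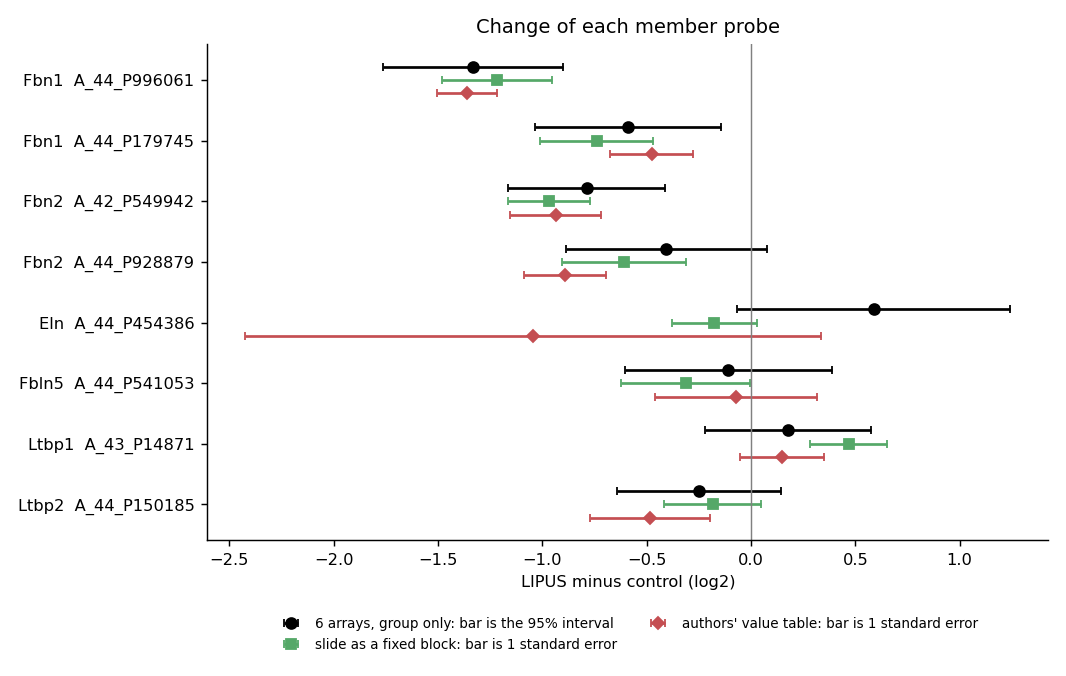
Change of each of the 8 probes, LIPUS minus control on the log2 scale: black circles with 95% intervals for the 6 arrays with group as the only term, green squares with 1 SE for slide as a fixed block, red diamonds with 1 SE for the authors' value table. The 4 fibrillin probes lie below 0 in all of these, Eln lies at 0.59, −0.18 and −1.04, and Ltbp1 lies above 0 in all.

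**Figure D4:**
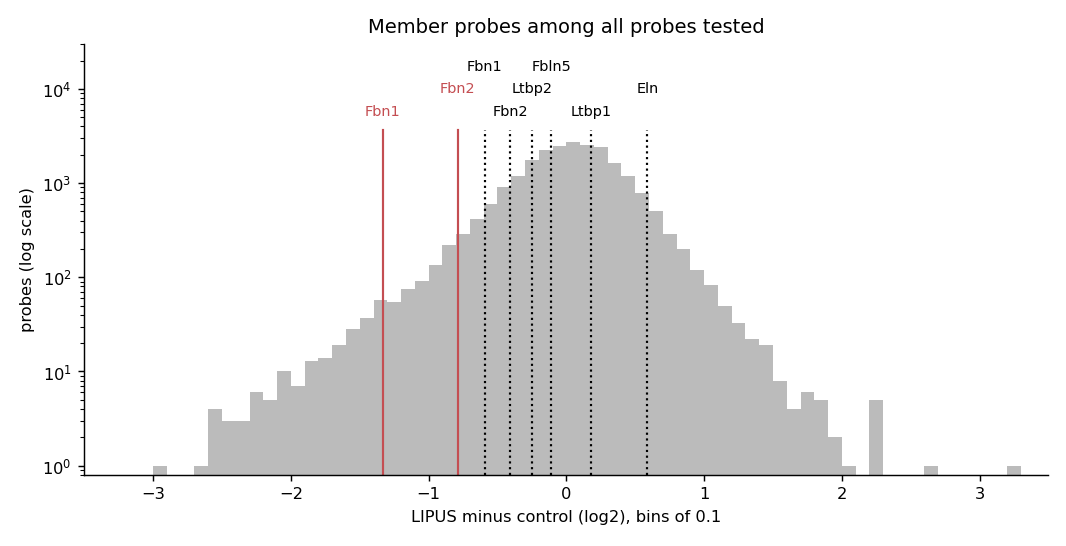
Number of probes (log axis) by change in log2 level, LIPUS minus control, in bins of 0.1 over the 23260 probes tested; vertical lines mark the 8 probes of the elastic fibre genes, solid red where called and dotted where not. The bright Fbn1 probe, at −1.33, lies in the lower tail, and the probes of Eln, Fbln5, Ltbp1 and Ltbp2 lie between −0.25 and 0.59.

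Other genes of the elastic fibre pathway were taken from 5 lists of 89 symbols, of which 43 had a kept probe, 54 probes in all. Of the 43 genes, 4 rose, 1 fell and the others did not pass. Of the 54 probes, 5 were called higher and 1 lower, against 2.86% and 3.65% of all probes tested. The scanner limit was reached by 13 of them on at least 1 array and by 6 on all arrays, which includes the only probe of Bgn, Lgals3 and Timp2. Those 6 read 0.24 higher in LIPUS from the scaling alone and could not be called. The median change was 0.18 over the 54 probes and 0.13 over the 41 that never reached the limit, against 0.04 over all probes tested. Among genes of the microfibril and elastic fibre surface, 7 of 25 were measured, and Dcn (NM_024129), which encodes the small proteoglycan decorin, was the 1 gene that rose. Its log2 level went from 5.51 ± 0.07 to 6.32 ± 0.17 (SD, n = 3 each), a change of 0.81 ± 0.16 (SE, limma adjusted p = 0.0182), with LIPUS 1 at the scanner limit. The fibulin genes Efemp1 (limma adjusted p = 0.462, not above background on any LIPUS array) and Efemp2 (0.26 ± 0.15, adjusted p = 0.353) did not pass. These, Loxl1 and the Tgfb genes are named after their values were seen. Mfap2, Mfap5 and Emilin1 had no matching probe.

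Among crosslinking and assembly genes, 5 of 13 were measured and 1 rose. Fkbp10 (NM_001014120) encodes FKBP65, a chaperone of the secretory pathway for collagen and tropoelastin. Its probes changed by 1.23 ± 0.19 (limma adjusted p = 0.00546) and 0.78 ± 0.17 (0.0276). The dimmer probe lost its call on omitting control 1, control 2, LIPUS 1 or LIPUS 2 (adjusted p reaching 0.111). The brighter probe stayed called with each array omitted in turn, but not with slide as a fixed block (0.89, adjusted p = 0.0888). The crosslinking gene Loxl1 did not pass at either probe (0.14 and 0.42), and Lox had no matching probe.

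In the list on latent TGF-beta and BMP control, 16 of 25 genes were measured, 0 rose and 1 fell. Nrros (NM_001024995), which tethers latent TGF-beta on macrophages and microglia, read 3.27, 3.42 and 3.29 in control and 2.19, 1.96 and 2.07 in LIPUS. Its fall of −1.25 ± 0.16 (SE, limma adjusted p = 0.00202) stayed called with each array omitted in turn and with slide as a fixed block (−1.22, adjusted p = 0.0443). The ligand genes Tgfb1 (0.58 ± 0.22, adjusted p = 0.162), Tgfb2 (0.28 ± 0.19, 0.447) and Tgfb3 (−0.39 ± 0.22, 0.337) did not pass. Among integrins and elastin receptor subunits, 4 of 12 were measured and 0 passed in limma, with 0 also at an unadjusted p under 0.05 (22.1% over all probes tested). Of the 7 probes of that list, 3 (Lgals3 and 2 of Ctsa) saturated the scanner on each array and could show no difference.

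Among genes of elastin and microfibril breakdown, 11 of 14 were measured, 2 rose and 0 fell. Mmp2 (NM_031054), a gelatinase that can degrade elastin and fibrillin, rose by 0.84 ± 0.17 (SE, limma adjusted p = 0.0198). Timp1 (NM_053819), an inhibitor of such proteases, saturated the scanner on each of the 3 LIPUS arrays, so its rise was at least 1.77-fold (adjusted p = 0.014). With slide as a fixed block, where only control 3 stands against the LIPUS arrays, Mmp2 changed by 0.92, Timp1 by at least 0.85 and Dcn by 0.90. None of the 3 was called in that fit. The call of Dcn also ended on omitting control 1, control 2, LIPUS 1 or LIPUS 2, with adjusted p reaching 0.0794. That of Mmp2 ended on omitting control 1, LIPUS 1 or LIPUS 2 (reaching 0.0864), and that of Timp1 on omitting control 1, LIPUS 2 or LIPUS 3 (reaching 0.0664). Under spike-in scaling their changes were 0.46, 0.49 and 0.48 and not called, while Nrros and the bright Fkbp10 probe were.

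**Figure D5:**
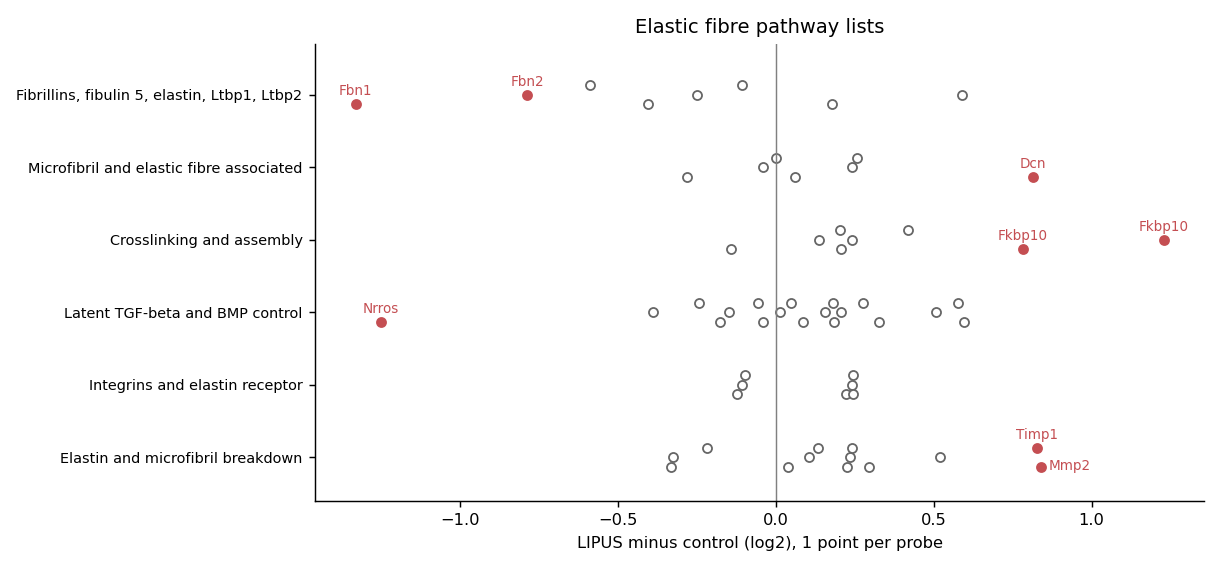
Change in log2 level, LIPUS minus control, of each kept probe of the 6 measured elastic fibre genes (top row) and of the 5 pathway lists; filled red points with a name were called (limma adjusted p under 0.05). The bright probes of Fbn1 and Fbn2 and the probe of Nrros are the called points below 0, and Dcn, Fkbp10, Mmp2 and Timp1 those above 0.

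Markers of cell types that make elastic fibres, or that share the culture, moved in different ways. Each list was summed on each array over its probes below the scanner limit, as level relative to the array's 75th percentile. For smooth muscle cells and pericytes, which also form elastic fibres, 6 of 9 marker genes were measured and 0 passed in limma. Only 1 probe, Rgs5, had an unadjusted p under 0.05 (change −0.78, limma adjusted p = 0.0507). The sum, which the brightest probes set, was 70.0 to 72.9 in control and 65.9 to 71.9 in LIPUS. The mean log2 level over the same 7 probes did not overlap, at 1.68 to 1.74 in control and 1.52 to 1.58 in LIPUS. Of these 7 probes, 4 had a change below 0. Rgs5, which was not called, moved that mean most, and the other probes in it changed by −0.28 to 0.14. Acta2 and Myh11 had no matching probe and Cnn1 was not kept. For fibroblasts and stroma, 5 of 7 were measured: Dcn and Lum rose and Vcam1 fell. Only the probes of Lum (4.67 ± 0.26 in control and 5.78 ± 0.22 under LIPUS, mean log2 level ± SD, n = 3 each) and Thy1 (1.37 ± 0.08 and 1.42 ± 0.06) stayed below the limit, so their sum, 24.2 to 33.6 in control and 48.5 to 63.3 under LIPUS, is set by Lum. It leaves out Vcam1, at the limit on the 3 controls and at least 2.11-fold higher there, both Cxcl12 probes, also at the limit on the 3 controls, and Dcn.

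Macrophage markers were lower: 4 of 7 measured genes fell (Clec10a, Fcgr2b, Csf1r and Aif1). The sum was 105 to 122 in control and 22.5 to 27.3 in LIPUS. It holds only the probes of those 4 called genes, so it adds nothing beyond their calls. The remaining 3 genes, Cd68, C1qa and C1qb, were at the scanner limit on all 3 controls and did not pass. Endothelial markers were lower too, with 3 of 4 measured genes called and sums of 5.72 to 6.32 against 2.16 to 2.63. Among their defining markers, Pecam1 was not kept and Cdh5, Tek and Vwf had no matching probe. Of 8 osteoblast markers, 3 rose (Dmp1, Phex and Panx3) and 0 fell, with sums over the 6 probes below the limit of 58.8 to 62.3 against 98.7 to 109.7. Of 5 measured adipocyte markers, 1 rose (Cidec), with sums of 44.9 to 54.6 against 50.6 to 56.1. Those sums are mostly set by Adipoq (mean log2 level 5.04 in control). The mean log2 level over the same 5 probes did not overlap, at 2.09 to 2.20 in control and 2.38 to 2.50 in LIPUS. Cidec, with a change of 1.09, moved that mean most, and the other probes in it changed by −0.12 to 0.43. Of the 6 kept probes, 2 had a change below 0. The part of these cell types in the fall of the fibrillins was not tested.

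Profiles most like those of the fibrillins were sought among 5535 other genes, by the root mean square difference of log2 values over the 6 arrays after centring each gene on its mean. Nearest to the bright Fbn1 probe were Rtn1 (0.102), Pttg1 (0.105) and Slc16a7 (0.109), with changes of −1.26, −1.30 and −1.43. Nearest to the bright Fbn2 probe were Slc30a1 (0.0776), Igf1 (0.0791) and F11r (0.0891), with changes of −0.80, −0.78 and −0.72. None of these 6 genes belongs to the elastic fibre lists. Those lists hold only 43 genes with a kept probe, so this absence is no result about the fibrillins. The like changes follow from picking genes by their likeness on the same arrays.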

How the data were processed

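RNA of 3 control and 3 LIPUS samples was labelled with Cy3 and put on single-colour Agilent rat arrays, per the labels' protocols. The deposited spot tables give spot and local background brightness as intensity, unnormalized, with the percent of pixels at the scanner limit of 65535 and position and flags as a score, per the file headers. No source used here names the scanner or its software. The authors' deposited value table holds log2 values whose 75th percentile is 0 in each column; column medians were −2.85 to −2.37, and how it was made is unknown.

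Spot medians were corrected with limma's normexp (offset 50), put on the log2 scale, averaged per probe and centred on each array's 75th percentile. The tables have no processed signal or background flag, so the negative controls set the limit. Of 41012 probes, 10768 matched a symbol in a RefSeq table (assembly GRCr8, names only), and 23260 were kept. Each was tested with limma 3.58.1 (R 4.3.3; lmFit, eBayes, two-sided, Benjamini-Hochberg over all kept probes), a procedure tested on simulated data. Ratios and the probe pairs of a gene were compared with exact permutation tests, the pairs chosen after seeing the data. The number of arrays limits the precision. Named were the 8 genes, called genes of each list (up to 4) and the 3 nearest profiles. The members and lists were chosen with earlier results of these data known. Alternatives changed background, scaling, filter, slide, replicate block, source and arrays. Plots used matplotlib 3.10.9, and labels were read with jsonlite 2.0.0.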

Additional observations from a re-analysis of the deposited data

How the results depend on the processing

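The 4 fibrillin probes stayed below 0 under every alternative run. Of 1515 probes called, 2 were fibrillin probes and 6 belonged to the pathway lists. These counts became 3910, 4 and 3 with spike-in scaling, 686, 1 and 2 without a filter on dim probes, and 289, 0 and 1 with slide as a fixed block. The authors' value table gave 854 calls, 1 of them Fbn1, and a prior variance that follows brightness gave 2514. With 1 array left out the calls numbered 670 to 2288, the member probes called 1 to 3 and the pathway probes called 2 to 7. The third was Eln without control 3. Leaving out 1 array, the ratio shifts at the bright fibrillin probes were 0.44 to 0.69 for Fbn2 to Fbn1 and 1.62 to 2.36 for Eln to Fbn1. The shift of Ltbp2 to Ltbp1 was −0.54 to −0.31. Ltbp1 went to −0.17 with spike-in scaling, which moves every probe by −0.35. Direction turned for Eln in the value table (−1.04) and with slide as a fixed block (−0.18), and Fbln5 without LIPUS 3 (0.11; −0.28 to 0.11 over omitted arrays); the cause was not tested. Samples with the same replicate number did not deviate together (correlations −0.015 to 0.0082). The fit with the replicate number as a block gave 1241 calls and kept both member calls (2). In that block the dim Fkbp10 probe was not called (adjusted p = 0.0546). Called probes were higher in LIPUS in 44.0% of cases, and in 5.27% with spike-in scaling. Signal over background limits Eln, which was above the background limit on 3 arrays, and Fbln5, which was close to that limit on some arrays.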
